A study of Mus musculus with 6 samples.

Results

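The miR-181 family was followed in brown and subcutaneous fat of mice fed EPA (eicosapentaenoic acid, an omega-3 fatty acid abundant in fish oil). Its 7 arms were picked by name from a deposited table of 1251 mouse miRNA arms: the 4 arms from the 5′ side of the hairpins (miR-181a-5p, miR-181b-5p, miR-181c-5p and miR-181d-5p) and 3 arms from the 3′ side (miR-181a-1-3p, miR-181a-2-3p and miR-181c-3p). All 7 were among the 269 miRNAs abundant enough to be tested. The table held 3 more miR-181 rows, miR-181b-1-3p, miR-181b-2-3p and miR-181d-3p, and each was listed at the floor of the table, 3.32 on the log2 scale, in all 6 libraries.

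The libraries were small RNA libraries from whole tissue of mice of the inbred C57BL/6J strain. There were 3 of interscapular brown fat (BF-EPA, numbered 3, 4 and 5), which burns fuel for heat, and 3 of subcutaneous fat from the groin (inguinal; SUB-EPA, numbered 1, 3 and 8), a white, lipid-storing depot. Every mouse was 5 to 6 weeks old at the start, ate a high-fat diet for 11 weeks (fat 45%, carbohydrate 35% and protein 20% by energy), and was fasted for 4 hours before the tissues were frozen. Per the design text, the diet of these groups carried 6.75% EPA. The title of the series asks which adipose miRNAs EPA regulates. Both groups analysed here received it, so the comparison is between the depots, and a response to EPA that differs by depot cannot be told apart from a depot difference. The labels do not say whether the 2 depots came from the same mice, so p-values measure the spread between these libraries.

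A miRNA hairpin is cut into a duplex, one strand of which usually enters an Argonaute protein and guides it to messenger RNAs that pair with the seed, bases 2 to 8. In the miR-181 hairpins the 5p arm is the usual guide and the 3p arm the usual passenger. The family is best known from lymphocytes, where miR-181a tunes T cell receptor sensitivity in mouse thymocytes. In mice its activity in white adipocytes has been linked to weight gain and insulin sensitivity, and miR-181b restrains NF-κB signalling in endothelial cells.

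The mature sequences show which arms share a seed and which can be told apart by sequence. They are printed 5′ to 3′ from RefSeq on GRCm38.p6 with the seed in capitals, and all 7 members matched by name.
miR-181a-5p: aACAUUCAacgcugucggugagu
miR-181b-5p: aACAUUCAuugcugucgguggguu
miR-181c-5p: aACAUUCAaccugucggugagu
miR-181d-5p: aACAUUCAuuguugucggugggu
miR-181a-1-3p: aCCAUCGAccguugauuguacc
miR-181a-2-3p: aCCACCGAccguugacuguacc
miR-181c-3p: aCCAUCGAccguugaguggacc

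The 4 guide arms share the seed ACAUUCA, and no other mature mouse miRNA of the RefSeq table has it. The seed of miR-181a-1-3p is also that of miR-181c-3p, while miR-181a-2-3p was the 1 entry with the seed CCACCGA. Some arms are close to identical. With positions counted from 1 at the 5′ end, miR-181b-5p and miR-181d-5p differ by C12U and by the length of the 3′ end, and miR-181a-5p and miR-181c-5p by 1 inserted or deleted base. MiR-181a-1-3p and miR-181a-2-3p differ by U5C and U16C. How many mismatches the read mapping allowed is not given in the sources used here, so reads may have been split between these pairs.

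The hairpins lie in 3 pairs. On GRCm38, the assembly also called mm10, Mir181a-1 (chr1:137966455-137966541, plus strand) and Mir181b-1 are 97 bases apart, in an intron of the noncoding gene Gm4258 and overlapping an exon of the long noncoding RNA A430106G13Rik. Mir181a-2 (chr2:38852735-38852810, plus strand) and Mir181b-2 are 1019 bases apart, opposite in strand to an intron of Nr6a1, an orphan nuclear receptor gene, and within the span of the long noncoding RNA gene Nr6a1os. Mir181d (chr8:84178716-84178787, minus strand) and Mir181c are 85 bases apart in an intron of an annotated transcript of Nanos3, a germ cell RNA-binding protein gene. The mature miR-181a-5p is the same from both of its hairpins, and so is miR-181b-5p. The 3p arms carry the locus, as the hairpins of miR-181a show, with the 3p arm in capitals.
Mir181a-1: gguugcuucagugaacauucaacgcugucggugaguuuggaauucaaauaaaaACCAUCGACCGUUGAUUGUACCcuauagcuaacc
Mir181a-2: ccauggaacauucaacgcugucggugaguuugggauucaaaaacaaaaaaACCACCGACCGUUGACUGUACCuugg

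All levels below are the authors' normalized log2 values. They run from the floor of 3.32 to 18.67, and the libraries have nearly equal distributions, so a value largely reflects a miRNA's rank within its library and carries no read depth. Of 4 tested brown adipocyte miRNAs, such as miR-193b-3p, all 4 were higher in brown fat. Of 5 tested Hox cluster miRNAs 4 were lower, with miR-196a-5p at the floor in all 3 brown libraries. These directions match the depot labels, but the lists were chosen with earlier results known, so they are no independent check. Over all 269 tested miRNAs 33.5% were called higher and 35.7% lower (limma, adjusted p under 0.05). MiR-455-5p, also on the brown adipocyte list, was at the floor in all 6 libraries. Muscle miRNA set 2 libraries apart. MiR-133a-3p stood at 10.32, 17.20 and 12.50 in BF-EPA 3, 4 and 5, against 10.74, 16.90 and 13.32 in SUB-EPA 1, 3 and 8, so BF-EPA 4 and SUB-EPA 3 were by far the highest of their depots. The log2 values rose with the GC content of the miRNA with slopes of 0.0215, 0.0262 and 0.0170 per percentage point in BF-EPA 3, 4 and 5, and fell with it in the subcutaneous libraries, with slopes of -0.122, -0.0910 and -0.113 per percentage point in SUB-EPA 1, 3 and 8.

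The guide arms of miR-181 were lower in brown fat and the passenger arm of 1 locus, Mir181a-2, was higher. Of the 7 members, 5 were lower, 1 was higher and 1 did not pass an adjusted p of 0.05 (limma, Benjamini-Hochberg over all 269 tested miRNAs). Over all tested miRNAs 35.7% were called lower and 33.5% higher, together 69.1%. The median difference, brown minus subcutaneous, was -1.31 for the members and -0.45 for all tested miRNAs. The values of the depots did not overlap for 6 of the 7 members and for 74% of all tested miRNAs; all brown values were the lower ones for 5 members and for 40.1% of all tested miRNAs. Differences between the depots were thus the rule in these libraries. With both directions pooled, the share called among the members is not far from the 69.1% of all tested miRNAs. By direction, 5 of the 7 members were lower, beside 35.7% of all tested miRNAs, and this contrast was not tested. In whole tissue, fewer cells of a type and less RNA per cell cannot be told apart.

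MiR-181a-5p, the dominant guide of the family, stood at 16.18, 16.51 and 16.38 in BF-EPA 3, 4 and 5, against 17.20, 17.20 and 17.58 in SUB-EPA 1, 3 and 8. Every brown library was below every subcutaneous one. It ranked 9, 7 and 8 among all miRNAs of the brown libraries, and 4, 4 and 3 in the subcutaneous ones. SUB-EPA 1 and 3 hold the same value at the same rank. The ranks count rows with identical values separately, such as miR-486-5p and miR-3107-5p, both at a mean of 17.68 in brown fat. The log2 difference of miR-181a-5p was -0.97 ± 0.15 (SE, n = 3 per depot, limma adjusted p = 0.0018). It was -0.55 with median-of-ratios scaling and -0.48 (adjusted p = 0.047) after removal of each library's trend with GC content.

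MiR-181b-5p, which shares its primary transcripts with miR-181a-5p, was at 10.32, 11.12 and 10.13 in BF-EPA 3, 4 and 5, against 11.94, 12.98 and 12.34 in SUB-EPA 1, 3 and 8. The depots did not overlap, and within each depot the highest library was the one with the most miR-133a-3p. The level was 3.73-fold higher in subcutaneous fat, a log2 difference of -1.90 ± 0.37 (SE, n = 3 per depot, limma adjusted p = 0.0040). It was -1.15 (adjusted p = 0.039) with the GC trend removed, and -1.51 without both libraries numbered 3, where the call was lost (adjusted p = 0.058). Without the library of each depot highest in miR-133a-3p it was -1.92 (adjusted p = 0.0059).

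The guide arms of the Nanos3 locus went in the same direction. MiR-181c-5p, a form of which has been found in the mitochondria of rat heart muscle cells, was at 9.85, 10.23 and 10.29 in BF-EPA 3, 4 and 5, against 11.70, 11.18 and 11.41 in SUB-EPA 1, 3 and 8. All brown values were lower, the difference was -1.31 ± 0.21 on the log2 scale (SE, n = 3 per depot, limma adjusted p = 0.0020), and it was -0.50 (adjusted p = 0.0496) with the GC trend removed. MiR-181d-5p was listed at the floor in BF-EPA 3 and 4 and stood at 5.92 in BF-EPA 5, against 8.22, 7.70 and 7.04 in SUB-EPA 1, 3 and 8.

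All 3 subcutaneous libraries were above the highest brown one for miR-181d-5p, and with brown libraries at the floor no fold is given. Its log2 difference of -3.47 ± 0.80 (SE, limma adjusted p = 0.0082) depends on that floor: it was -1.95 with 40 added to the linear values. The difference was -3.01 both without the libraries numbered 3 (adjusted p = 0.099) and without the library of each depot highest in miR-133a-3p (adjusted p = 0.096), so the call was lost with 2 libraries left per depot.

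**Figure D1:**
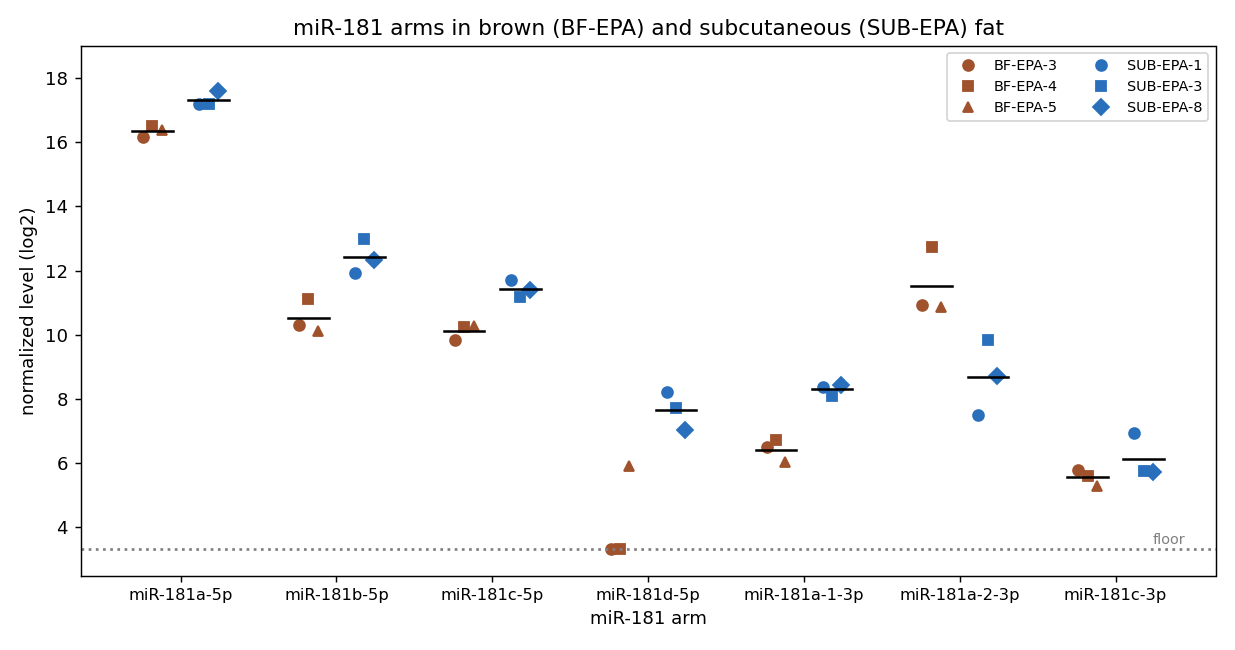
Normalized level (log2) of the 7 miR-181 arms in each library, brown on the left of each pair and subcutaneous on the right; horizontal bars are means and are left out where a library is at the floor, which is dotted. The 4 guide arms and miR-181a-1-3p are lower in brown fat, miR-181a-2-3p is higher, and miR-181c-3p overlaps.

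Added on the linear scale, the 4 guide arms with the shared seed came to 76267, 96585 and 87590 units in BF-EPA 3, 4 and 5, against 158070, 161156 and 204169 units in SUB-EPA 1, 3 and 8. The lowest subcutaneous library was thus above the highest brown one. The sum made up 3.59% ± 0.42 of the library total in brown fat and 7.22% ± 1.07 in subcutaneous fat (SD, n = 3 each), so the mean was 2.01-fold higher in subcutaneous fat. The difference of the mean log2 sums was -1.004, -0.58 with median-of-ratios scaling and -0.50 with the GC trend removed. The library total counts rows with identical values separately, such as miR-486-5p and miR-3107-5p. Both had a mean of 17.68 in brown fat and 14.73 in subcutaneous fat. No test was made of the sum of the guide arms.

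MiR-181a-5p held nearly all of it, 96.9% ± 0.42 of the sum in brown fat and 94.9% ± 1.36 in subcutaneous fat (SD, n = 3 each). The other 3 guide arms made up 2.89%, 3.56% and 2.77% in BF-EPA 3, 4 and 5, against 4.77%, 6.59% and 3.94% in SUB-EPA 1, 3 and 8. Every subcutaneous share was above every brown one. The log2 ratio of miR-181a-5p to miR-181b-5p was 5.83 ± 0.43 in brown fat and 4.91 ± 0.60 in subcutaneous fat (SD, n = 3 each), without overlap between the depots. For miR-181a-5p to miR-181c-5p it was 6.23 ± 0.13 and 5.90 ± 0.35 in brown and subcutaneous fat (SD, n = 3 each), and the depots overlapped.

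**Figure D2:**
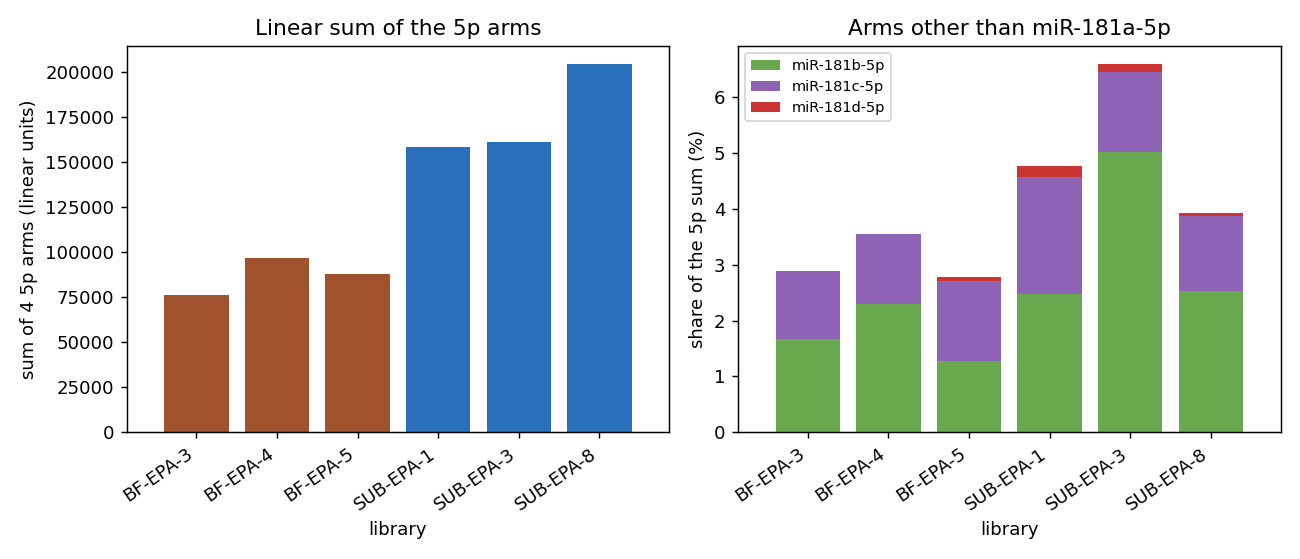
Left, linear sum of the 4 miR-181 5p arms in each library; right, share of that sum in percent held by the arms other than miR-181a-5p. The brown libraries have the lower sums, 76267 to 96585 units, and the lower shares of the minor arms, 2.77% to 3.56%.

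The 2 passenger arms of miR-181a went in opposite directions, which is the clearest contrast within the family. MiR-181a-1-3p, from chromosome 1, was at 6.52, 6.71 and 6.04 in BF-EPA 3, 4 and 5, against 8.39, 8.08 and 8.44 in SUB-EPA 1, 3 and 8. All brown values were below all subcutaneous ones, and it was 3.69-fold higher in subcutaneous fat (log2 difference -1.88 ± 0.29 SE, n = 3 per depot, limma adjusted p = 0.0018).

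MiR-181a-2-3p, from chromosome 2, was at 10.93, 12.74 and 10.87 in BF-EPA 3, 4 and 5, against 7.49, 9.85 and 8.73 in SUB-EPA 1, 3 and 8. All brown values were above all subcutaneous ones, with a smallest gap of 1.02 on the log2 scale. The difference of the depot means was 2.82 ± 0.75 on the log2 scale, or 7.08-fold (SE, n = 3 per depot, limma adjusted p = 0.014). The difference was 2.21 without BF-EPA 4 (adjusted p = 0.0499) and 2.22 without SUB-EPA 1 (adjusted p = 0.043). Without SUB-EPA 8 it was 2.84 and the call was lost (adjusted p = 0.0501). Its sequence has 59.1% G and C, as has that of miR-181c-3p, against 50% in miR-181a-1-3p and 43.5% to 47.8% in the guide arms. With the GC trend removed the difference of miR-181a-2-3p was 1.85 (limma adjusted p = 0.048), and that of miR-181a-1-3p was -1.67 (limma adjusted p = 0.0035).

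MiR-181a-2-3p was therefore the second most abundant arm of the family in brown fat, where its range overlapped that of miR-181b-5p. In subcutaneous fat it came below miR-181b-5p and miR-181c-5p and overlapping miR-181a-1-3p. Of the linear units of both miR-181a passenger arms together, miR-181a-2-3p held 95.5%, 98.5% and 96.6% in BF-EPA 3, 4 and 5, against 34.9%, 77.3% and 54.9% in SUB-EPA 1, 3 and 8. The lowest brown share was above the highest subcutaneous one. The log2 ratio of miR-181a-1-3p to miR-181a-2-3p was -5.09 ± 0.84 in brown fat and -0.38 ± 1.34 in subcutaneous fat (SD, n = 3 each), a difference of -4.71, and of -3.52 with the GC trend removed.

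**Figure D3:**
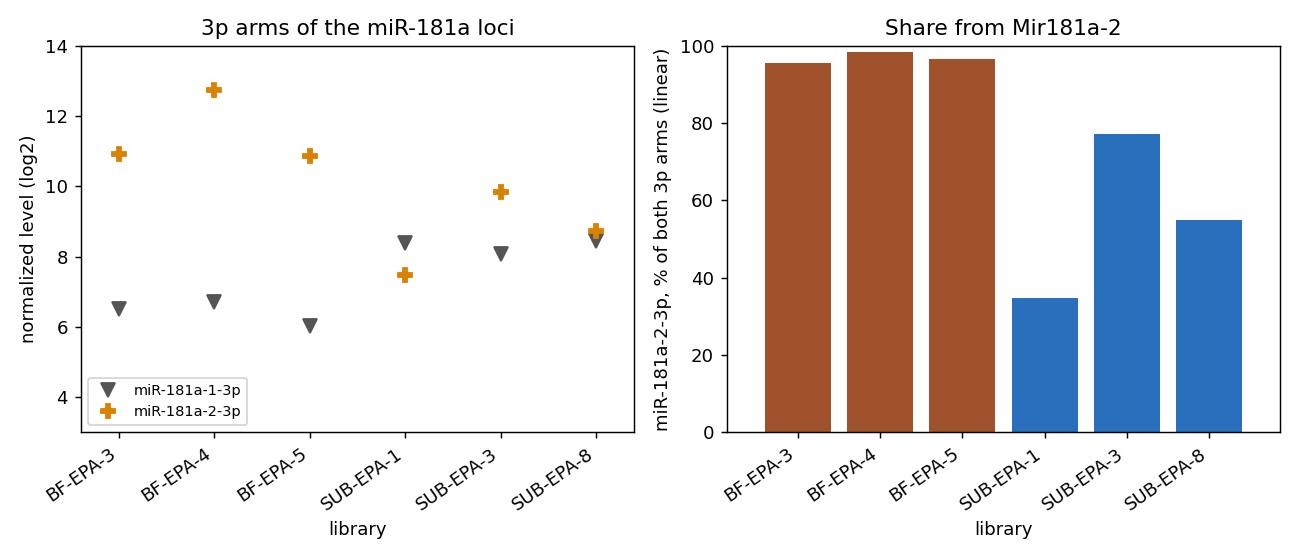
Left, normalized level (log2) of the 3p arms of the miR-181a hairpins in each library; right, miR-181a-2-3p as a percentage of the linear units of both arms. The share is 95.5% to 98.5% in the brown libraries and 34.9% to 77.3% in the subcutaneous ones.

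Set against the shared guide, miR-181a-5p exceeded miR-181a-2-3p by 4.84 ± 0.94 on the log2 scale in brown fat and by 8.64 ± 1.20 in subcutaneous fat (SD, n = 3 each). It exceeded miR-181a-1-3p by 9.93 ± 0.36 in brown fat and by 9.02 ± 0.18 in subcutaneous fat. The depots did not overlap in either ratio. Of 8 such ratios between arms, 5 did not overlap between the depots. In a two-sided exact permutation test each of these 5 had p = 0.10, the smallest that 3 against 3 libraries allow, and 0.16 after adjustment over the 8, so none passed 0.05.

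The third passenger arm, miR-181c-3p, was at 5.77, 5.60 and 5.30 in BF-EPA 3, 4 and 5, against 6.93, 5.76 and 5.74 in SUB-EPA 1, 3 and 8. The depots overlapped, with SUB-EPA 1 above the other 5 libraries. The difference of -0.58 on the log2 scale did not pass (limma adjusted p = 0.29), and its 95% interval ran from -1.70 to 0.53. With the GC trend removed it was -1.56 with an adjusted p of 0.028. The log2 ratio of miR-181c-5p to miR-181c-3p was 4.57 ± 0.46 in brown fat and 5.29 ± 0.46 in subcutaneous fat, with overlap (SD, n = 3 each). That difference of -0.72 turned to 1.06 with the GC trend removed.

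**Figure D4:**
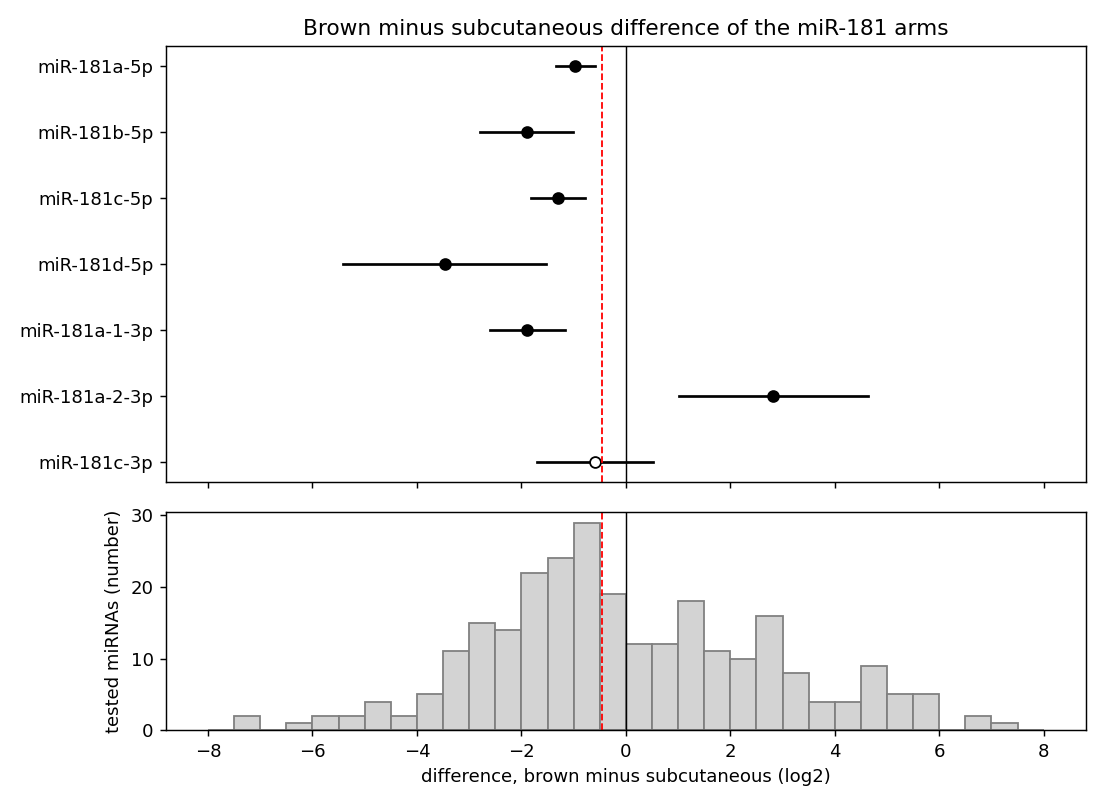
Top, brown minus subcutaneous log2 difference of each miR-181 arm with its 95% interval from limma, filled where the adjusted p is under 0.05; bottom, the differences of all 269 tested miRNAs. The dashed line is the median of all tested miRNAs, -0.45; miR-181a-2-3p, at 2.82, lies on the opposite side of it from the 4 guide arms.

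Relative to the median of all tested miRNAs, the members' differences were -0.52 for miR-181a-5p, -1.44 for miR-181b-5p, -0.85 for miR-181c-5p and -3.01 for miR-181d-5p, and for the passenger arms -1.43 for miR-181a-1-3p, 3.28 for miR-181a-2-3p and -0.13 for miR-181c-3p. Median-of-ratios scaling moved the median of all tested miRNAs to -0.09, and each member kept its direction under it. The absolute difference of miR-181a-5p was larger than that of 25.7% of the tested miRNAs, and that of miR-181d-5p larger than that of 81.4%. The placing of miR-181d-5p depends on the floor, since its difference was -1.95 with 40 added to the linear values.

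Muscle miRNA varied within the depots, and the library highest in miR-133a-3p was also highest in some members. MiR-181a-2-3p was highest in BF-EPA 4 within brown fat and in SUB-EPA 3 within subcutaneous fat, the libraries highest in miR-133a-3p. In the subcutaneous libraries both miRNAs had the same order. In BF-EPA 3 and 5 they did not, with miR-133a-3p at 10.32 and 12.50 and miR-181a-2-3p at 10.93 and 10.87. The relation between the 2 miRNAs was not tested. Of 3 tested muscle miRNAs 0 passed the threshold. The summed level of the 4 listed muscle miRNAs ran from 10.35 to 17.21 in brown fat and from 10.76 to 16.91 in subcutaneous fat. MiR-1a-3p, a defining muscle miRNA included in this sum but not tested, was at the floor in all 6 libraries. Without BF-EPA 4 and SUB-EPA 3 the difference of miR-181a-2-3p was 2.79 (limma adjusted p = 0.018).

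**Figure D5:**
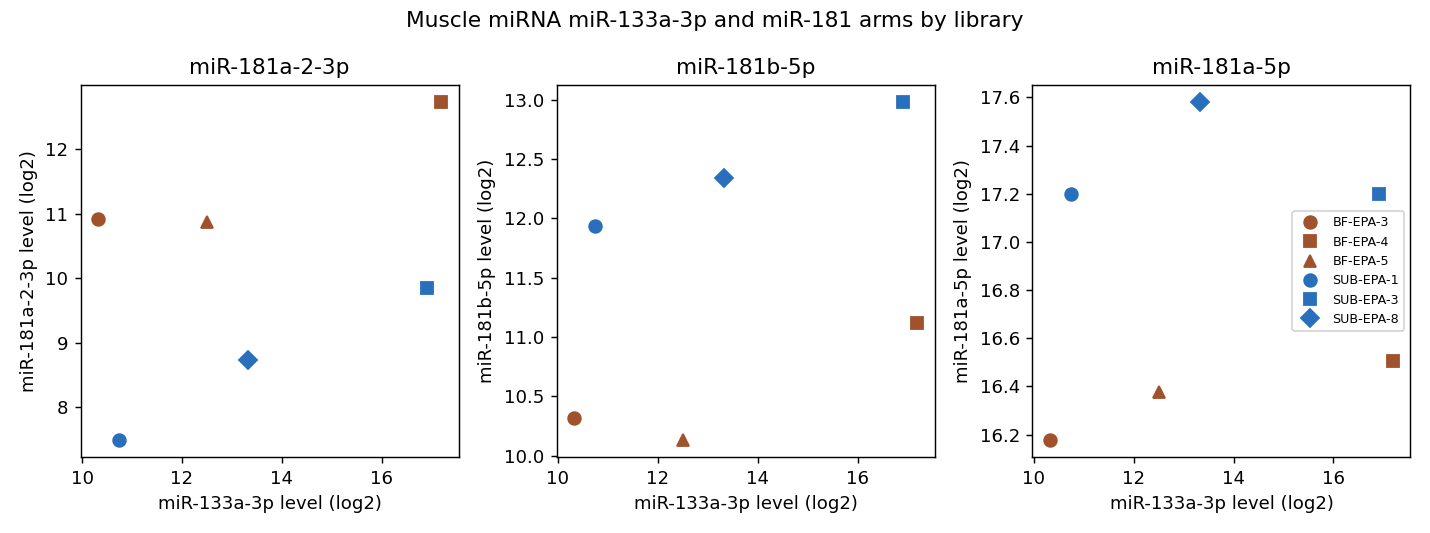
Level of miR-181a-2-3p, miR-181b-5p and miR-181a-5p against that of the muscle miRNA miR-133a-3p, all log2, 1 point per library. In both depots the library highest in miR-133a-3p, BF-EPA 4 or SUB-EPA 3, is also highest in miR-181a-2-3p and miR-181b-5p.

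Among the miRNAs listed for other cell types, some were lower in brown fat, as the guide arms were, and others were not. Over all tested miRNAs 35.7% were called lower and 33.5% higher. Of 5 tested stromal miRNAs 4 were lower in brown fat, with a summed level of 14.64 to 14.91 there and 16.47 to 16.80 in subcutaneous fat. Both endothelial arms of miR-126 were lower, with sums of 11.66 to 11.90 in brown fat and 13.28 to 13.62 in subcutaneous fat. Of 5 tested leukocyte miRNAs 4 were lower, among them the myeloid miR-223-3p, and 1, the lymphocyte miRNA miR-150-5p, was higher, with miR-142-3p and miR-155-5p at the floor in all 6 libraries. The leukocyte sum, mostly miR-150-5p, was 15.08 to 15.50 in brown fat and 14.03 to 14.42 in subcutaneous fat. Of 3 neuronal miRNAs miR-124-3p and miR-9-5p were at the floor throughout, and the third, miR-128-3p, did not differ past the threshold; the sum was 7.56 to 9.28 in brown fat and 7.88 to 8.82 in subcutaneous fat. The part of these cell types in the miR-181 differences was not tested.

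The miRNAs outside the family whose levels over the 6 libraries, each less its own mean, lay closest to those of miR-181a-5p were miR-126-5p, miR-29a-3p and miR-16-5p. Their Euclidean distances were 0.39, 0.40 and 0.44 log2 units, and their differences between the depots were -0.91, -0.87 and -1.25. For miR-181b-5p the closest were miR-103-3p, let-7i-5p and miR-99b-3p, at 0.97, 1.02 and 1.04 log2 units, with differences of -2.07, -2.11 and -2.13. The distances describe these 6 libraries and were not tested.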

How the data were processed

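The 6 libraries were grouped by the depot in their titles. Per the series' design text, the authors mapped reads to mm10, about 13.8 M per sample, scaled counts of each unique read to total usable reads and added 40 counts. The mismatch setting is not given in the sources used here. Values were deposited on the log2 scale by the authors, with a floor at 10 linear units, at which 910 of 1251 miRNAs stood in all libraries. Read depth is therefore unknown from the table, and no counting interval is given. Scaling to total reads with 40 counts added does not by itself give this floor or the nearly equal distributions. Shares of the library total are shares of normalized units, not of reads. Rows with identical values, such as miR-486-5p and miR-3107-5p, were each kept in totals, ranks and tests.

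MiRNAs with a mean of at least 24.0 linear units above the floor (10 ppm of the mean library total) were tested with limma 3.58.1 in R 4.3.3 with a mean-variance trend, brown minus subcutaneous, with Benjamini-Hochberg adjustment over all 269 at 0.05. Ratios between arms were compared with exact two-sided permutation tests. The fit was tested on simulated data. Sequences and loci came from RefSeq (GRCm38.p6) and GENCODE M21. GC content of the mature sequence was known for 85.1% of tested miRNAs. MiRNAs named were the 7 members, the cell type markers, and the 3 non-members nearest to each of the 2 most abundant members. Members, lists and ratios were chosen with earlier results of these data known. Alternatives changed the filter, added 40 linear units, rescaled by median of ratios, dropped the variance trend, removed GC trends, subtracted the floor or left out libraries. Figures were drawn with matplotlib 3.10.9.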

Additional observations from a re-analysis of the deposited data

How the results depend on the processing

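No paired analysis was possible. The labels do not say which libraries, if any, came from the same mouse, and the depots share only the library number 3. All 7 members kept the sign of their difference under every alternative in which they could be tested. A filter 10 times as strict left 4 members in the test, and 3 members were then called lower and 1 higher. Of the 157 miRNAs then tested, 69 (43.9%) were called lower and 58 (36.9%) higher, against 96 (35.7%) and 90 (33.5%) of 269. Without both libraries numbered 3, 3 members were called lower and 1 higher, beside 30.5% and 28.3% of the 269 tested miRNAs. Leaving out each library in turn gave 0 to 1 members higher, 5 members lower, 75 to 91 of all miRNAs higher and 90 to 97 lower. With median-of-ratios scaling, the log2 ratio of the linear sum of the guide arms was -0.58, and -0.50 with the GC trend removed; leaving out each library it ran from -1.08 to -0.885. The log2 ratio of miR-181a-1-3p to miR-181a-2-3p differed between the depots by -5.74 to -3.52 over its alternatives. That of miR-181c-5p to miR-181c-3p reversed to 1.06 with the GC trend removed; the cause was not tested. Ratios with miR-181d-5p could not be computed with the floor subtracted. The alternatives without the library of each depot highest in miR-133a-3p and the removal of GC trends from sums and ratios were chosen after seeing the data. With the GC trend removed, 6 members were called lower and 1 higher, beside 36.2% and 28.4% of the 229 miRNAs tested, and the adjusted p of the 7 lay between 0.0035 and 0.0496. Levels of miR-181d-5p and miR-181c-3p near the floor limit how large a difference can appear.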
